A study of Mus musculus with 25 samples.

Results

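The RET and HCmel12 lines, 2 murine melanoma lines that the study placed in opposite groups by their growth in the liver, were compared by RNA-seq of untreated cultures. The comparison rested on 10 of the 25 libraries of the series, chosen by the cell line label, with 5 biological replicates of RET and 5 of HCmel12. The pair was taken because, in earlier results of these data, it was the closest of the pairs from opposite groups and both lines were similar in melanocyte differentiation. Individual pigment genes still differed between the lines, as given below. RET cells came from a melanoma of mice that carry a human RET transgene under the metallothionein-I promoter. HCmel12 cells came from a primary melanoma of mice with a hepatocyte growth factor (HGF) transgene and the Cdk4 R24C knock-in allele, which makes the kinase insensitive to its inhibitor p16. In the study RET belonged to HIM-melanoma, the lines with high or intermediate liver metastasis, and HCmel12 to LM-melanoma, the lines with low liver metastasis. Both were kept in RPMI with serum and antibiotics and harvested at a confluency of 50% within 3 passages of thawing, but the HCmel12 medium also held Hepes, β-mercaptoethanol, L-glutamine, sodium pyruvate and non-essential amino acids. Each line is a single tumour line in repeated culture, so that line, driver and medium cannot be told apart. The p-values measure the spread between cultures of the same line, which was estimated over all 25 libraries of the series.

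Melanoma arises from melanocytes, neural crest cells that make melanin in organelles called melanosomes. Their fate is set by the transcription factors Mitf, Sox10 and Pax3, and their growth depends on receptor tyrosine kinases, among them Kit, Met and in these mice the RET transgene, which signal through RAS, RAF and the kinase ERK. ERK output is held in check by negative feedback genes of the Sprouty and Dusp families. The p16 and p19ARF proteins, both encoded by Cdkn2a, restrain Cdk4 and the p53 inhibitor Mdm2, respectively, and loss of this locus is common in melanoma.

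Between 24204392 and 25545975 estimated counts were assigned to genes in each of the 10 libraries. Levels are given as CPM, counts per 1000000 counts of the library after its total was scaled with the TMM factor, with the SD over 5 libraries. The detection limit was set at 3 counts, which corresponded to 0.1114 to 0.122 CPM on this scale. Where all libraries of a line held at most 3 counts of a gene, the fold against that line was computed with 3 counts per library and is a lower bound, while folds given without the words at least come from the fitted log2 fold change. The melanocyte lineage label was met in both lines, as the summed level of 8 lineage markers lay between 20000 and 23800 CPM in RET and between 14600 and 20500 CPM in HCmel12. Keratinocyte, lymphoid and erythroid markers summed to at most 0.127 CPM in every library, fibroblast markers to between 0.732 and 2.17 CPM and myeloid markers to between 2.25 and 4.3 CPM. The summed endothelial markers were at 1.23 to 2.04 CPM in RET and at 26.1 to 39.6 CPM in HCmel12. Nearly all of the HCmel12 sum was the receptor gene Kdr. Of the 5 endothelial markers, Cdh5, a defining endothelial gene, had at most 3 counts in every library of both lines. Kdr and Tek had at most 3 counts in every RET library but were above this in HCmel12, and the other markers were above it in both lines. In bulk RNA, fewer cells of a type and less RNA per cell cannot be told apart.

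Of the 10 libraries, 2 stood apart from their line. In HCmel12 replicate 4, 159 genes were more than 2-fold above the other 4 HCmel12 libraries and 14 were more than 2-fold below them. In RET replicate 3, 30 genes were more than 2-fold above the other 4 RET libraries, among them Id3 and Id1, targets of BMP signaling. The other 8 libraries had 2 to 12 such genes. List medians that moved by more than 1.5-fold without HCmel12 replicate 4 are given both ways, and its own value is given for several genes in which it stood apart.

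A test was possible for 15247 genes, of which 10253 (67.2%) differed between RET and HCmel12 at an adjusted p under 0.05. In RET 5177 genes (34.0%) were higher and 5076 (33.3%) were lower than in HCmel12. With at least a 2-fold difference as a further condition, 1889 genes (12.4%) were higher and 2160 (14.2%) were lower. The median log2 fold change over all tested genes was -0.003. These shares are the background against which the counts of each gene group below are to be read. All fold changes are RET relative to HCmel12 and all adjusted p-values are from limma with the Benjamini-Hochberg method.

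The largest differences were between presence and absence. Gsdmc, of the gasdermin family of pore-forming proteins, was at 137 to 217 CPM in the 5 RET libraries and at 0 counts in all 5 HCmel12 libraries, at least 1540-fold higher in RET. Its paralogues limit this value, as 23.9% of the 31-base sequences of its transcripts occur in transcripts of other genes. Suclg2, the GTP-forming subunit of succinyl-CoA ligase in the citric acid cycle, was at 144 to 154 CPM in RET and at 0 in HCmel12, at least 1230-fold higher, with 20.6% of its sequence shared. Hspb8, a small heat shock protein, was at 77.2 to 81.2 CPM against at most 0.0407 CPM and was at least 655-fold higher. Pdpn, the membrane mucin podoplanin, was at 25.1 to 42.3 CPM against 0 counts. Foxr2, a forkhead transcription factor, Ptprk, a receptor tyrosine phosphatase, and Brs3, an orphan receptor of the bombesin family, were at means of 31.4, 30.8 and 24.7 CPM in RET and had no count in HCmel12. Crim1, a membrane protein that binds BMPs, was at least 308-fold higher in RET. All these RET genes were as absent from HCmel12 replicate 4 as from the other HCmel12 libraries. Xlr3c (43.2 CPM against 0) shares 82.2% of its sequence with other genes of the X-linked Xlr family and is uncertain.

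In the other direction, Gpm6b, a neuronal membrane glycoprotein, was at 194 to 216 CPM in HCmel12 and at no more than 0.04 CPM in RET, at least 1750-fold lower. Pxdn, a peroxidase that crosslinks collagen IV, was at 76.3 to 105 CPM in HCmel12 and was found in a single RET library at 0.0771 CPM. Sox12, a transcription factor of the SoxC group, was at 70.8 to 86 CPM in HCmel12 and at least 692-fold lower in RET. S1pr3, a receptor for sphingosine-1-phosphate, and Nkd2, an inhibitor of Wnt signaling, had means of 53.1 ± 9.08 and 52.7 ± 13.1 CPM in HCmel12 and no count in any RET library. Pcdhgc3, a protocadherin of the gamma cluster, was at 310.7 CPM against 0, but its exons are partly common to the cluster and 38.2% of its sequence is shared. Hist1h2ap, a histone H2A gene with 93.4% of its sequence shared, is uncertain.

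**Figure D1:**
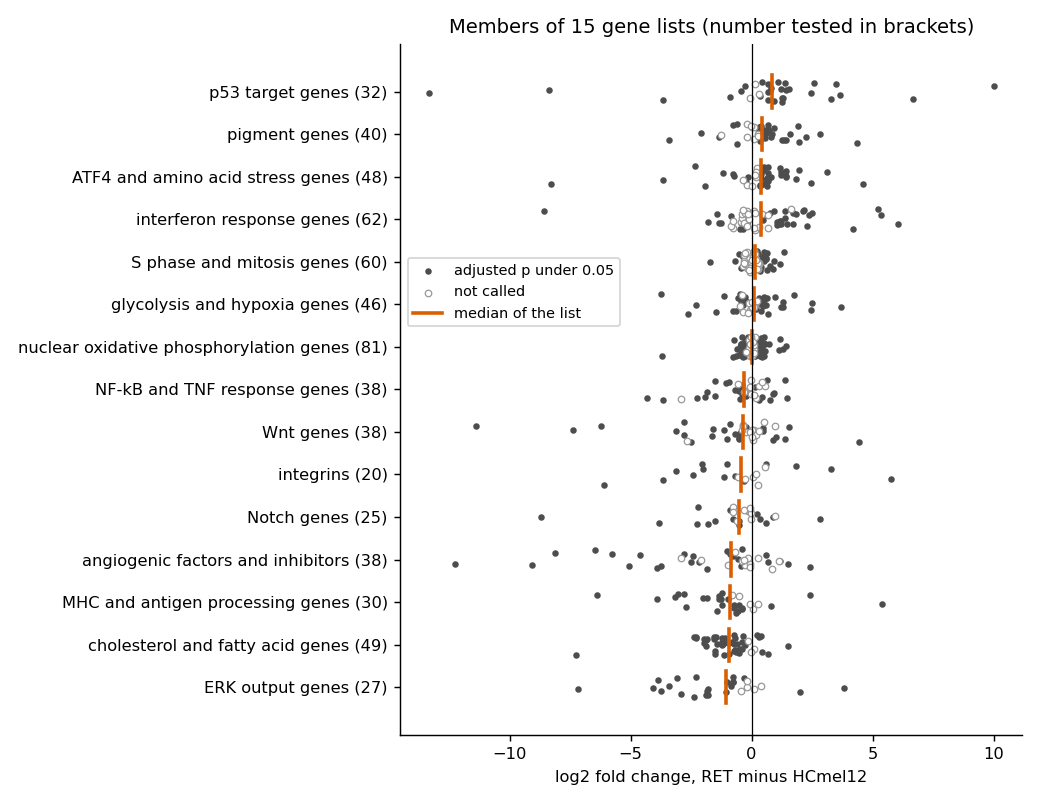
Each row is a gene list, with the number of tested members in brackets, and each point is a gene at its log2 fold change of RET relative to HCmel12 (filled, adjusted p under 0.05; open, not called; orange bar, median of the list). Of the 36 lists 15 are drawn. Their medians run from 0.85 for p53 target genes to -1.05 for ERK output genes, and each list drawn holds genes on both sides of 0.

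Among the genes of the transgenes and their pathways, Hgf and Met were lower in RET, while Cdk4 and Mt2 did not pass the test. Hgf, the ligand of Met, was read at 83.9, 96.1, 103, 113 and 77.9 CPM in the 5 HCmel12 libraries and at 0 counts in all RET libraries, at least 812-fold lower in RET. Counts of the transgene and of the endogenous gene cannot be told apart. Met itself was at 95.5, 80.9, 99.5, 123 and 91.6 CPM in RET and at 1090, 942, 987, 1310 and 1040 CPM in HCmel12 (log2 fold change -3.46, SE 0.15, adjusted p = 8.5e-17). HCmel12 thus held the higher level of both ligand and receptor, with no overlap between the lines. Mouse Ret had at most 3 counts in every RET library and none in HCmel12, and it was not tested. The human RET transgene is not among the mouse transcripts that were counted, so that its level was not measured. Mt1, a metallothionein gene of the family whose promoter drives the transgene, was at 572.6 ± 59 CPM in RET and 357.6 ± 40.8 CPM in HCmel12 (log2 fold change 0.68, SE 0.15, adjusted p = 0.00022), while Mt2 was at 352.9 ± 39.1 and 354.6 ± 76.6 CPM (adjusted p = 0.96). Cdk4 did not pass the test, with 559.1 ± 33.5 CPM in RET and 591 ± 9.28 CPM in HCmel12 (log2 fold change -0.08, SE 0.05, adjusted p = 0.11). Over the 30 tested genes of this list, 10 were higher in RET and 14 were lower, with 4 and 10 at 2-fold or more and a median log2 fold change of -0.18, and 6 did not pass the test.

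Cdkn2a was not detected in RET. It was read at 181, 205, 188, 218 and 221 CPM in HCmel12 and had no count in any RET library, at least 1740-fold lower in RET. The deposited values are per gene, so that p16 and p19ARF transcripts were not separated. Its neighbour Cdkn2b, which encodes the related inhibitor p15, had 11.4 ± 2.73 CPM in HCmel12 and no count in RET, at least 97.5-fold lower. Both genes lie on chromosome 4 of GRCm38, Cdkn2a at 89274471 to 89294653 and Cdkn2b at 89306299 to 89311039, on the minus strand. Of the genes on either side, Mtap was detected in RET and Dmrta1 was near the detection limit there. Mtap, a methionine salvage enzyme at 89137122 to 89181081, was at 501.4 ± 27.3 CPM in RET and 246.2 ± 38.8 CPM in HCmel12 (log2 fold change 1.04, SE 0.08). Dmrta1, a transcription factor gene at 89679436 to 89694772, was low in both lines, with 0.124 ± 0.0314 and 0.626 ± 0.268 CPM. It was called lower in RET (log2 fold change -2.12, adjusted p = 0.00011). DNA of the lines was not measured.

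Ccnd2, Ccnd1 and Cdk6, genes of D-type cyclins and of a kinase that p16 restrains, differed between the lines. Ccnd2 was at 754, 980, 1060, 774 and 815 CPM in RET and at 41, 38.2, 47.3, 48 and 43.1 CPM in HCmel12, 20-fold higher in RET (log2 fold change 4.32, SE 0.11, adjusted p = 4e-21). Ccnd1 was lower in RET, at 239.8 ± 39.8 against 423.7 ± 131 CPM (log2 fold change -0.78, SE 0.15), with overlapping libraries because HCmel12 replicate 4 was at 254 CPM. Cdk6, the other kinase of the D-type cyclins, was at 25.5 to 36.3 CPM in RET and 1.29 to 2.21 CPM in HCmel12 (log2 fold change 4.07, SE 0.23). RET cells thus held more Ccnd2 and Cdk6 and no Cdkn2a transcript, while HCmel12 cells held Cdkn2a and more Ccnd1.

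Target genes of p53, the tumour suppressor that halts division after damage, were mostly higher in RET. Of 32 tested, 23 were higher and 6 were lower in RET (15 and 3 at 2-fold or more, against a background of 12.4% and 14.2%), with a median log2 fold change of 0.85, and of 0.86 without HCmel12 replicate 4. Cdkn1a, which encodes the cyclin-dependent kinase inhibitor p21, was at 298, 325, 329, 284 and 292 CPM in RET and at 17.6, 31.5, 38, 34.2 and 39.9 CPM in HCmel12 (log2 fold change 3.30, SE 0.16, adjusted p = 1.7e-15). Ccng1, a cyclin that responds to p53, was at 390 to 450 CPM against 31 to 35.2 CPM (log2 fold change 3.67, SE 0.11). The lines did not overlap for either gene.

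Mdm2, the ubiquitin ligase that degrades p53, was at 155 to 196 CPM in RET and 70.3 to 86.8 CPM in HCmel12 (log2 fold change 1.11, SE 0.09). The proapoptotic gene Bax (log2 fold change 0.79, SE 0.08), the exonuclease Aen (1.28, SE 0.09) and the zinc finger gene Zmat3 (1.36, SE 0.10) were also higher, with no overlap between the lines. Eda2r, a death receptor of the TNF receptor family, was at 26.9 to 30.3 CPM in RET and at most 0.0813 CPM in HCmel12, at least 240-fold higher. Perp, a desmosome protein and mediator of apoptosis, was at least 33.5-fold higher. Trp53inp1, which promotes p53 activity and autophagy, was 11.2-fold higher, at 43.3 to 67.2 CPM against 1.9 to 15.9 CPM, where the highest HCmel12 value was replicate 4.

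The members of the list that were lower in RET by 2-fold or more were Cdkn2a, Pmaip1 and Plk2. Cdkn2a is counted here although its product p19ARF restrains Mdm2 and thus acts upstream of p53. Pmaip1, which encodes the proapoptotic protein Noxa, was at 7.09 to 8.74 CPM in HCmel12 and reached 0.04 CPM in a single RET library, at least 68.8-fold lower in RET. Plk2, a kinase of centriole duplication, was at 11.4 to 17.4 CPM in RET and 143 to 195 CPM in HCmel12 (log2 fold change -3.66, SE 0.12). Trp53, the gene of p53, was at 190.1 ± 3.42 CPM in RET and 229.2 ± 26 CPM in HCmel12 (log2 fold change -0.26, SE 0.07, adjusted p = 0.0018), with overlap from HCmel12 replicate 4 at 184 CPM. The sequence of Trp53 in these lines was not examined.

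**Figure D2:**
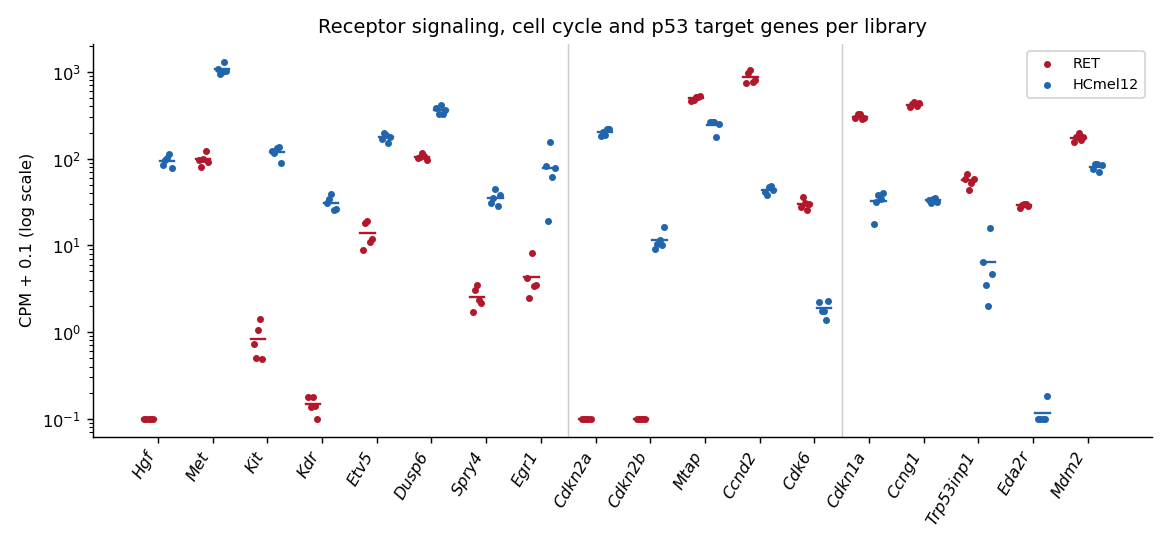
Level of 18 genes in each library as CPM plus 0.1 on a log axis (RET in red, HCmel12 in blue, bars at means of 5 libraries). The groups are receptor and ERK pathway genes, cell cycle genes with Mtap as a neighbour of Cdkn2a, and p53 target genes. Hgf, Cdkn2a and Cdkn2b are at 0 in every RET library, whereas Ccnd2, Cdk6, Cdkn1a and Ccng1 are higher in every RET library than in any HCmel12 library.

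Genes that rise with ERK activity were mostly lower in RET. Of 27 tested, 2 were higher and 20 were lower (2 and 15 at 2-fold or more), with a median log2 fold change of -1.05, and of -1.03 without HCmel12 replicate 4. Among the negative feedback genes, Dusp6, a phosphatase of ERK, was at 101, 105, 116, 108 and 95.2 CPM in RET and at 389, 327, 411, 331 and 364 CPM in HCmel12 (log2 fold change -1.79, SE 0.16, adjusted p = 3.4e-10). Spry4, a Sprouty inhibitor of receptor signaling, was at 1.62 to 3.43 CPM against 28.2 to 44.7 CPM (log2 fold change -3.86, SE 0.46). Both genes were separate between the lines. Dusp4, another phosphatase, did not pass the test, with 132.6 ± 26.1 and 147.3 ± 9.04 CPM (log2 fold change -0.17, SE 0.10, adjusted p = 0.15).

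Genes of transcription factors downstream of ERK were among the lower members. Etv5 was at 8.65 to 19.1 CPM in RET and 151 to 198 CPM in HCmel12 (log2 fold change -3.75, SE 0.17), with 30.3% of its sequence shared with other genes, and its relative Etv4 was at 2.96 to 4.45 against 31.7 to 44.7 CPM (log2 fold change -3.41, SE 0.25). The immediate early gene Fos was 12.1-fold lower, at 2.25 to 3.7 CPM against 25.3 to 46.5 CPM. Egr1 was at 2.38 to 8.03 CPM in RET and varied from 18.8 to 154 CPM in HCmel12 (log2 fold change -4.06, SE 0.79, adjusted p = 6.4e-05), and Egr3 was at no more than 0.2 CPM in RET against 12.2 to 28.7 CPM. The spread of Egr1 within HCmel12 was wide. The members higher in RET were the ephrin receptors Epha4 and Epha2. Epha4 had a mean under 1 CPM in both lines. Epha2 was at 4.95 ± 2.23 against 1.26 ± 0.662 CPM (log2 fold change 1.99, SE 0.34).

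Of 27 tested receptor tyrosine kinases, 6 were higher and 12 were lower in RET (6 and 8 at 2-fold or more), with a median log2 fold change of -0.30. Kit, the receptor on which melanoblast survival depends, was nearly lost in RET, at 0.632, 0.408, 0.945, 1.32 and 0.386 CPM against 122, 117, 133, 138 and 90 CPM in HCmel12 (log2 fold change -7.45, SE 0.39, adjusted p = 4e-15). Its ligand Kitl was also lower, at 4.58 to 7.72 against 28.7 to 37.5 CPM (log2 fold change -2.43, SE 0.11). Kdr, a VEGF receptor whose gene lies beside Kit on chromosome 5 (Kit at 75574916 to 75656722 and Kdr at 75932827 to 75978458), was at 25.3 to 38.9 CPM in HCmel12 and at most 0.079 CPM in RET, at least 265-fold lower. Flt4, the receptor of Vegfc, was 54.4-fold lower in RET. RET libraries thus carried little message of Kit, Kdr or Flt4.

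Pdgfrb and Mertk were among the receptors higher in RET. Pdgfrb, a PDGF receptor typical of mesenchymal cells, was at 12.3 to 13.6 CPM in RET and was found in a single HCmel12 library, replicate 4, at 0.121 CPM, at least 108-fold higher in RET. Mertk, a receptor of the TAM family that recognizes dying cells, was at 91.8 to 95.4 against 14.7 to 20.2 CPM (log2 fold change 2.47, SE 0.12). Its relative Axl, linked to the dedifferentiated state of melanoma, had the opposite sign, at 11.1 to 33.6 CPM against 50 to 70.6 CPM (log2 fold change -1.71, SE 0.22). Erbb3, a neuregulin receptor of the neural crest, was moderately lower in RET, at 97.4 ± 8.33 against 154 ± 20.1 CPM (log2 fold change -0.66, SE 0.09).

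Among 23 tested genes of Kit, endothelin and melanocortin signaling, the paracrine routes by which keratinocytes act on melanocytes, 5 were higher and 15 were lower in RET (5 and 8 at 2-fold or more, median log2 fold change -0.50). Ece1, the protease that releases active endothelin, was at 4.51 to 5.99 CPM in RET and 94.3 to 117 CPM in HCmel12, 20.8-fold lower (adjusted p = 3.6e-19). Mc1r, the melanocortin receptor that turns pigment synthesis to black eumelanin, was higher in RET, at 227, 188, 207, 238 and 193 CPM against 69.8, 60.3, 73, 92.3 and 62.1 CPM (log2 fold change 1.57, SE 0.16, adjusted p = 2.8e-09).

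Pigment genes were mostly higher in RET. Of 40 tested, 25 were higher and 6 were lower (9 and 3 at 2-fold or more), with a median log2 fold change of 0.43, and of 0.54 without HCmel12 replicate 4. The promoters of several of these genes hold the M-box, the sequence TCATGTG that Mitf is known to bind. Windows of the promoters from RefSeq (GRCm38.p6) are given from 5′ to 3′ on the strand of the gene for 6 genes whose values are given, with the M-box or its reverse complement CACATGA in capitals.
Tyr (chr7:87493503-87493559, minus strand): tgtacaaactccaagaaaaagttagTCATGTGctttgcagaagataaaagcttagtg
Mc1r (chr8:123407005-123407061, plus strand): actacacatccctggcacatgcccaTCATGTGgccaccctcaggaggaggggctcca
Tyrp1 (chr4:80834141-80834197, plus strand): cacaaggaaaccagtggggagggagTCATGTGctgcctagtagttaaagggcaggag
Dct (chr14:118052366-118052422, minus strand): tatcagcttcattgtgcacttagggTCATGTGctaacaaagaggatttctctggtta
Slc24a5 (chr2:125068089-125068145, plus strand): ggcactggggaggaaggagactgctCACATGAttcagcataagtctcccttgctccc
Trpm1 (chr7:64153668-64153724, plus strand): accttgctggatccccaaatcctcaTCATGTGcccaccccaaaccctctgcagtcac

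The M-box begins 22 bases before the start of Tyr, 52 before Mc1r, 47 before Tyrp1, 151 before Dct, 13 before Slc24a5 and 142 before Trpm1. The Dct promoter holds another M-box, in reverse, that begins 232 bases before the start and is outside the window given. Searched on both strands from 250 bases before to 50 bases after the start, it was present in 8 of 31 pigment genes with a promoter entry (25.8%) and in 1239 of all 32851 promoters (3.77%). The E-box CACGTG, which does not overlap it, was present in 10 of the 31 (32.3%) and in 7.15% of all promoters. It was not particular to pigment genes, with 7 of 26 AP-1 and Hippo genes (26.9%) and 8 of 41 ATF4 and amino acid stress genes (19.5%). A match is a description of the sequence, and binding was not measured. Genes that share the M-box did not share a fold change, as the values of these 6 genes show.

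Tyr, the rate-limiting oxidase of melanin synthesis, was at 225, 195, 185, 243 and 244 CPM in RET and at 8.59, 9.13, 8.31, 30 and 6.31 CPM in HCmel12 (log2 fold change 4.38, SE 0.23, adjusted p = 5.5e-15). HCmel12 replicate 4 held more than 3 times as much as any other HCmel12 library, and without it the HCmel12 mean was 8.08 CPM. Tyrp1, the related melanosomal oxidase, was the most abundant of the list per length and did not pass the test, at 8445 ± 789 and 8339 ± 897 CPM (log2 fold change 0.02, SE 0.22, adjusted p = 0.95), or 5844 and 5727 TPM. Dct, which converts dopachrome, was at 3020 to 3970 CPM in RET and at 2350 to 2600 CPM in 4 HCmel12 libraries but at 5040 CPM in replicate 4 (log2 fold change 0.29, SE 0.19, adjusted p = 0.19), and it was higher in RET at the threshold once this library was left out. Neither of these enzyme partners of Tyr was called.

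Mlana, Pmel, Bace2 and Slc24a5 were among the members higher in RET. Mlana, a melanosome membrane protein, was at 980 to 1020 CPM against 112 to 173 CPM (log2 fold change 2.83, SE 0.15). Pmel, which forms the fibrils on which melanin is laid down, was at 2570 to 3520 CPM against 570 to 1160 CPM (log2 fold change 1.95, SE 0.20), and Bace2, the protease that processes Pmel, was 4.69-fold higher. Slc24a5, a cation exchanger needed for pigmentation, was at 424 to 515 CPM against 174 to 278 CPM (log2 fold change 1.25, SE 0.13). In all of these the lines did not overlap.

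Some members were lower in RET. Oca2, a chloride transporter that raises melanosomal pH, was at 1.74 to 2.56 CPM in RET and 6.22 to 14.2 CPM in HCmel12 (log2 fold change -2.10, SE 0.27). Cited1, a transcriptional coactivator first found in pigmented melanoma cells, was 10.6-fold lower, at 17 to 36 CPM against 190 to 343 CPM. Apoe, a lipid carrier, was at 222.8 ± 34.4 against 573 ± 124 CPM (log2 fold change -1.35, SE 0.12). Trpm1, a cation channel gene, was at 56.9 ± 8.85 against 106.5 ± 58.1 CPM (adjusted p = 0.0081), with overlapping libraries, and it did not pass the test on TPM values or without a filter on low counts.

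The factors that set melanocyte identity were present in both lines and slightly lower in RET. Mitf, the master regulator of melanocytes, was at 453, 337, 429, 467 and 482 CPM in RET and at 630, 772, 534, 780 and 512 CPM in HCmel12 (log2 fold change -0.56, SE 0.13, adjusted p = 0.00033). Sox10 was at 546.9 ± 47.3 against 825.8 ± 58.6 CPM (log2 fold change -0.60, SE 0.11, adjusted p = 3.2e-05). The DESeq2 Wald test gave Sox10 a similar log2 fold change of -0.62 but did not call it (adjusted p = 0.29). Pax3 was at 182.1 ± 12 against 219.3 ± 20.2 CPM (log2 fold change -0.27, SE 0.06).

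Over 28 tested melanocyte transcription factors, 8 were higher and 15 were lower in RET (4 and 9 at 2-fold or more, median log2 fold change -0.52). Foxd3, which keeps neural crest cells from becoming melanocytes, had no count in RET and was at 10.8 to 18.3 CPM in HCmel12, at least 117-fold lower in RET. Lef1, a partner of β-catenin that activates Mitf, was at least 34.8-fold lower in RET. Lmx1b, a LIM homeodomain factor, was at 8.91 to 10.9 CPM in RET against at most 0.0404 CPM, at least 82.4-fold higher. Sox9, which is antagonistic to Sox10 in melanoma, was low but higher in RET, at 3.85 ± 1.21 against 0.532 ± 0.434 CPM (log2 fold change 3.18, SE 0.47).

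**Figure D3:**
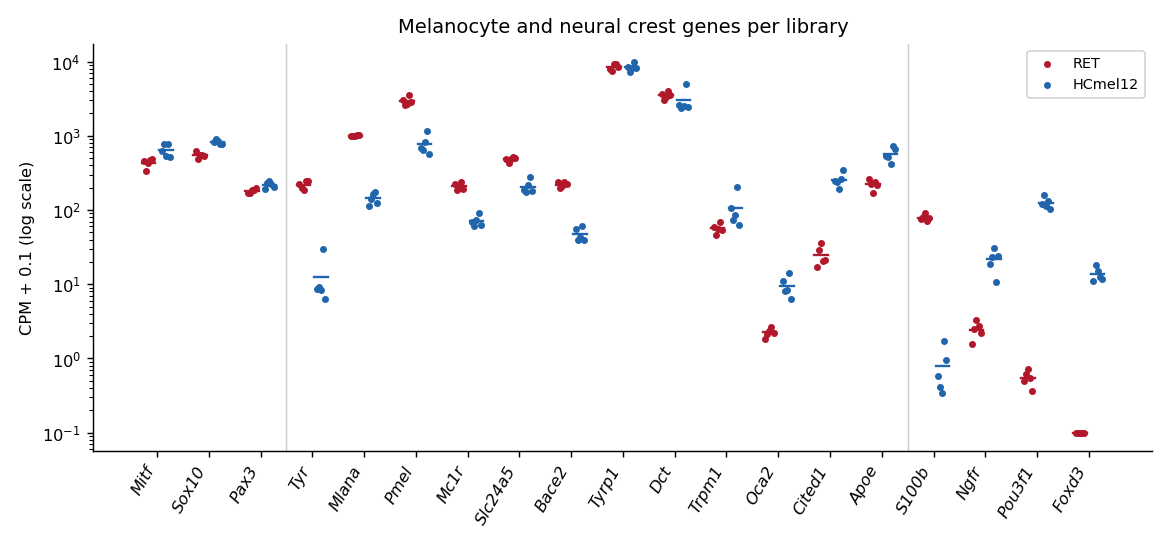
Level of melanocyte transcription factor, pigment and neural crest genes in each library as CPM plus 0.1 on a log axis (red, RET; blue, HCmel12; bars, means of 5 libraries). Tyr, Mlana and Pmel are higher in every RET library, Tyrp1 overlaps (8445 and 8339 CPM), and Ngfr, Pou3f1 and Foxd3 are lower in every RET library.

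Schwann cells share their neural crest origin with melanocytes, and several of their genes were lower in RET. Of 24 tested Schwann and neural crest markers, 6 were higher and 13 were lower (6 and 9 at 2-fold or more, median log2 fold change -0.63). Pou3f1, a factor that precedes myelination, was at 103 to 160 CPM in HCmel12 and 0.27 to 0.63 CPM in RET (log2 fold change -8.10, SE 0.31). Ngfr, the low-affinity neurotrophin receptor, was at 1.46 to 3.19 against 10.7 to 30.8 CPM (log2 fold change -3.14, SE 0.55). S100b, a calcium-binding protein used as a melanoma marker, had the opposite sign, at 70.6 to 92.2 CPM in RET and 0.243 to 1.61 CPM in HCmel12 (log2 fold change 7.09, SE 0.36, adjusted p = 3e-15). The list therefore did not move as a block.

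Integrins link cells to matrix and their repertoire differed by subunit. Of 20 tested, 4 were higher and 10 were lower in RET (3 and 8 at 2-fold or more, median log2 fold change -0.43). Itgb4, the β4 chain of hemidesmosomes, was at 49.9, 55.1, 56.7, 49.6 and 47.9 CPM in RET and at 1.08, 1.12, 1.05, 1.01 and 0.528 CPM in HCmel12 (log2 fold change 5.77, SE 0.21, adjusted p = 3.1e-18). Its partner Itga6, which also pairs with β1, did not pass the test, at 230.4 ± 32.4 and 201.1 ± 28.3 CPM (log2 fold change 0.20, SE 0.14, adjusted p = 0.23). The 2 chains of the laminin receptor α6β4 thus differed unequally between the lines.

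Itga7, another laminin receptor chain, was at 0.119 to 0.347 CPM in RET and 12.2 to 19.1 CPM in HCmel12 (log2 fold change -6.08, SE 0.40), and Itga3 was at 0.4 to 1.5 against 4.35 to 6.04 CPM (log2 fold change -3.11, SE 0.33). Itgb1, the common β1 chain, was at 595.8 ± 49.9 against 731.5 ± 68.9 CPM (log2 fold change -0.30, SE 0.08), and Itga4, a chain of the VCAM-1 receptor, was at 111.5 ± 19.1 and 109.1 ± 25.8 CPM (adjusted p = 0.79). Levels of Itgb1 and Itga4 overlapped between the lines.

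Among 39 tested collagens and laminins, 12 were higher and 10 were lower in RET (10 and 10 at 2-fold or more). The median log2 fold change was 0.008, but -0.015 without HCmel12 replicate 4 and -0.052 without RET replicate 3. Type I collagen chains were higher in RET at unequal precision. Col1a1 was at 11.1, 16.1, 80.9, 10.2 and 35.7 CPM in RET and at most 0.488 CPM in HCmel12 (log2 fold change 5.83, SE 1.09), so that RET libraries differed widely from each other, while Col1a2 was at 5.61 to 6.77 against 0.161 to 0.481 CPM (log2 fold change 4.55, SE 0.46). Of 8 tested laminin chains, a subset counted after the values were seen, 5 were lower in RET and none was higher, while Lama1, Lama4 and Lamc1 did not pass the test. Lama3 was at most 0.158 CPM in RET against 7.25 to 17.5 CPM, Lama5 was at 8.21 ± 0.833 against 61 ± 12.7 CPM (log2 fold change -2.87, SE 0.18) and Lamb1 was at 2.56 ± 1.25 against 27.6 ± 6.76 CPM (log2 fold change -3.52, SE 0.30).

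Of 48 tested matricellular proteins and proteases, 12 were higher and 21 were lower in RET (11 and 15 at 2-fold or more, median log2 fold change -0.23). Fn1, fibronectin, was at 157 to 445 CPM in RET and 1070 to 1800 CPM in HCmel12 (log2 fold change -2.46, SE 0.22). Serpine2, an inhibitor of thrombin and urokinase, was at 1.57 to 5.09 against 240 to 370 CPM, 133-fold lower in RET. Among matrix proteases, Mmp2, a gelatinase, was 9.54-fold lower, Adam12 was 17.1-fold lower, and Mmp16, a membrane-bound activator of Mmp2, was at 13.6 to 18.9 CPM in HCmel12 with no count in RET, at least 144-fold lower. Adamts9, a protease of matrix proteoglycans on chromosome 6, had the opposite sign (log2 fold change 6.55, SE 0.53). It was at 5.32 to 6.74 CPM in RET and at most 0.323 CPM in HCmel12, where the highest value was replicate 4. The HCmel12 mean fell from 0.0968 to 0.0402 CPM without that library.

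Hpse, the heparanase that cleaves heparan sulfate, was higher in RET, at 6.89 to 14.1 CPM against 0.0405 to 0.163 CPM in 4 HCmel12 libraries and 1.61 CPM in replicate 4 (log2 fold change 5.85, SE 0.62). Without replicate 4 the HCmel12 mean of Hpse fell from 0.403 to 0.101 CPM. Ccn4, a matricellular protein induced by Wnt signaling, was at 11.6 to 24.9 against 0.0807 to 0.122 CPM (log2 fold change 6.99, SE 0.885). Its HCmel12 values did not exceed the detection limit of 3 counts.

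Genes of junctions and caveolae were split by member, with 10 of 39 higher and 17 lower in RET (7 and 14 at 2-fold or more, median log2 fold change -0.08, and -0.14 without HCmel12 replicate 4). Cav1, the coat protein of caveolae, was at 3.12 to 4.78 CPM in RET against 276 to 297 CPM in 4 HCmel12 libraries and 479 CPM in replicate 4 (log2 fold change -6.31, SE 0.24). Its partner Cav2, the adjacent gene on chromosome 6, was also lower (log2 fold change -1.64, SE 0.08), whereas Cavin2, a coat adaptor, was at 66 to 105 against 3.46 to 6.41 CPM (log2 fold change 4.04, SE 0.24). Cavin1, the adaptor that caveolae require, did not pass the test (50 ± 2.7 and 53 ± 3.37 CPM, adjusted p = 0.46). Caveolar genes therefore had all 3 outcomes.

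Gja1, the gap junction protein connexin 43, was at 26.8 to 36.7 CPM in RET and 0.525 to 1.18 CPM in HCmel12 (log2 fold change 5.19, SE 0.28). F11r, the tight junction protein JAM-A, was at 0.4 to 0.906 against 28.4 to 42.9 CPM (log2 fold change -6.05, SE 0.33). Cdh1, E-cadherin, was low in both lines, at 1.1 ± 0.304 CPM in RET and 3.81 to 6.94 CPM in 4 HCmel12 libraries with 15.2 CPM in replicate 4 (log2 fold change -2.56, SE 0.36). Cdh2, N-cadherin, was abundant in both, at 192.7 ± 11.6 and 238 ± 33.3 CPM (log2 fold change -0.30, SE 0.09). Vim, the intermediate filament vimentin, was at 2330 to 2620 against 784 to 1070 CPM (log2 fold change 1.51, SE 0.09). Of 30 tested mesenchymal and EMT genes, 9 were higher and 11 were lower (7 and 5 at 2-fold or more, median -0.26).

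Guidance ligands and receptors steer growing axons and migrating crest cells. Of 44 tested, 14 were higher and 18 were lower in RET (12 and 14 at 2-fold or more, median log2 fold change -0.27). The median was -0.44 without HCmel12 replicate 4 and -0.64 without the 4 members on chromosome 6. Nrp2, a receptor of semaphorins and Vegfc, was at 336 to 413 CPM in RET and 42.8 to 88.2 CPM in HCmel12 (log2 fold change 2.40, SE 0.15), and its co-receptor Plxnd1 was at 618 to 1310 against 171 to 238 CPM (log2 fold change 2.10, SE 0.15). Robo1, a receptor of Slit proteins, was 10-fold higher in RET. Of the members lower in RET, Tenm3, a teneurin of synaptic matching, was at 34 to 52.3 CPM in HCmel12 and at least 359-fold lower in RET. The semaphorin gene Sema5a was at 6.71 to 15.5 CPM in HCmel12 and at most 0.216 CPM in RET (log2 fold change -6.50, SE 0.57), and the semaphorin receptor gene Plxna2 was at 2.99 to 4.9 against at most 0.159 CPM. The libraries of the lines did not overlap for these genes.

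Among Eph receptors and ephrins, which signal in both directions at cell contacts, 9 of 18 were higher and 8 were lower (8 and 7 at 2-fold or more). The median log2 fold change was 0.56 but -0.28 without the members on chromosome 6. Efnb2, ephrin-B2, was at 10.9 to 22.9 CPM in HCmel12 and at most 0.2 CPM in RET (log2 fold change -7.15, SE 0.55). Ephb6, a kinase-dead receptor, was at 8.22 to 9.69 CPM in RET with no count in HCmel12, at least 75.4-fold higher, and Epha3 was at 80.5 to 119 against 26.7 to 48.7 CPM (log2 fold change 1.56, SE 0.16).

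Of 38 tested angiogenic factors and inhibitors, 5 were higher and 20 were lower in RET (3 and 15 at 2-fold or more, median log2 fold change -0.84). Vegfa, the main endothelial growth factor, was at 27, 24.4, 20, 23.7 and 23.6 CPM in RET and at 26.5, 26.1, 32.2, 68.8 and 34.2 CPM in HCmel12 (log2 fold change -0.57, SE 0.18, adjusted p = 0.0085), with overlap and with HCmel12 replicate 4 the highest. Vegfb (log2 fold change -0.44, SE 0.10) and Vegfc (-0.39, SE 0.09) were slightly lower in RET without overlap. Apln, the peptide apelin that acts on vessels, was at 0.64 to 1.08 against 25.4 to 39.8 CPM (log2 fold change -5.06, SE 0.34), and Pdgfa, which recruits fibroblasts and pericytes, was at 14.8 to 22.1 against 80.8 to 119 CPM (log2 fold change -2.50, SE 0.15). Angpt2, which loosens vessel walls, was higher in RET, at 43.9 to 46.6 against 20.5 to 33.1 CPM (log2 fold change 0.68, SE 0.12).

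The Notch and Wnt pathways, which guide neural crest development, held differences in both directions. Jag1, a Notch ligand, was at 10.7 to 18.8 CPM in RET and 1.37 to 2.23 CPM in HCmel12 (log2 fold change 2.83, SE 0.28), and the receptor gene Notch1 was at 33.6 ± 1.67 against 18.3 ± 2.58 CPM (log2 fold change 0.88, SE 0.15). Dtx4, a ubiquitin ligase of the pathway, had no count in RET and was at 6.13 to 10.6 CPM in HCmel12, at least 69.4-fold lower in RET. Lfng, a glycosyltransferase that modifies Notch receptors, was at 0.8 to 3.03 against 4.16 to 10.5 CPM (log2 fold change -2.20, SE 0.28), and the ligand gene Dll3 was 3.44-fold lower. Of 25 tested Notch genes, 5 were higher and 10 were lower (1 and 6 at 2-fold or more, median log2 fold change -0.54). Of 38 tested Wnt genes, 7 were higher and 17 were lower (4 and 11 at 2-fold or more, median -0.37). Tcf7, a DNA-binding partner of β-catenin, was 5.7-fold lower in RET, and the co-receptor Lrp6 was 2.94-fold higher (log2 fold change 1.56, SE 0.08). Ctnnb1, β-catenin, did not pass the test (1270 ± 40.9 and 1215 ± 73.3 CPM, adjusted p = 0.30), nor did its feedback target Axin2 (8.87 ± 1.23 and 7.32 ± 2.32 CPM, adjusted p = 0.22).

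Of 48 tested TGF-beta and BMP genes, 15 were higher and 22 were lower in RET (7 and 14 at 2-fold or more, median log2 fold change -0.19). Tgfb1 was at 1.78, 2.79, 1.94, 1.8 and 2.2 CPM in RET and at 34.5, 55.7, 69.3, 45.9 and 60.2 CPM in HCmel12 (log2 fold change -4.62, SE 0.33, adjusted p = 2.8e-12). Smad3, which carries the signal to the nucleus, was lower as well, at 37.4 ± 2.12 against 112.3 ± 14.2 CPM (log2 fold change -1.58, SE 0.08). Bmp4, a BMP ligand, was at least 28.2-fold lower, as was the BMP target Id4 (at least 32.7-fold). Id2, of the same family as Id4, had the opposite sign, at 154 to 202 CPM in RET against 37.1 to 79.2 CPM (log2 fold change 1.64, SE 0.31), and Fstl3, a secreted inhibitor of activin, was at 12.7 to 14.7 against 0.159 to 0.848 CPM (log2 fold change 5.48, SE 0.27). The ligand genes Tgfb1 and Bmp4 were thus lower in RET and the inhibitor gene Fstl3 was higher.

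MHC class I molecules present peptides to T cells, and their genes were mostly lower in RET. Of 30 tested MHC and antigen processing genes, 3 were higher and 22 were lower (2 and 14 at 2-fold or more), with a median log2 fold change of -0.90, and of -0.84 without HCmel12 replicate 4, in which 4 members were raised. B2m, the light chain of class I, was at 274, 201, 181, 253 and 235 CPM in RET and at 540, 582, 581, 762 and 629 CPM in HCmel12 (log2 fold change -1.44, SE 0.10, adjusted p = 2.6e-12). The heavy chains H2-D1 (37 ± 3.39 against 89.7 ± 27.3 CPM) and H2-K1 (6.45 ± 2.33 against 24.6 ± 15 CPM) were lower without overlap, although 26.7% and 22.8% of their sequence is shared within the family. Nlrc5, the transactivator of class I genes, was at 0.512 to 0.83 against 4.74 to 6.86 CPM (log2 fold change -3.15, SE 0.22).

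The peptide supply was not uniform. Psmb8, a subunit of the immunoproteasome, was lower in RET, at 0.0788 to 0.231 against 0.757 to 2.06 CPM. Tap1, a subunit of the peptide transporter, was higher in RET, at 5.5 to 7.34 CPM against 0.677 to 1.16 CPM in 4 HCmel12 libraries and 3.15 CPM in replicate 4 (log2 fold change 2.41, SE 0.27). Cd274, the checkpoint ligand PD-L1, was at 4.54 to 5.45 CPM in RET and 19.4 to 29 CPM in HCmel12, with 55.4 CPM in replicate 4 (log2 fold change -2.47, SE 0.25).

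Of 62 tested interferon response genes, 27 were higher and 12 were lower in RET (22 and 5 at 2-fold or more), with a median log2 fold change of 0.37. HCmel12 replicate 4 held 14 of the 62 at more than 2-fold above the other HCmel12 libraries, and without it the median was 0.54. Ifit3, Ifit1, Mx1, Trim30a and Oas1a, genes known for antiviral activity, were among the members higher in RET. Ifit3 was at 13.5, 12.8, 7.85, 13.4 and 12.4 CPM in RET and at 1.89, 2.08, 1.27, 6.24 and 2.54 CPM in HCmel12 (log2 fold change 2.29, SE 0.37), with 61.8% of its sequence shared with its paralogues, and Ifit1 was at 16.5 ± 3.82 against 4.11 ± 2.57 CPM. Mx1, a GTPase against RNA viruses, was at 1.84 to 2.98 against 0.189 to 0.686 CPM (log2 fold change 2.50, SE 0.28), and the TRIM family gene Trim30a was at least 35-fold higher. Oas1a, an oligoadenylate synthetase, was 37.7-fold higher but shares 68.8% of its sequence.

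Other members had the opposite sign. Ly6e, a membrane protein that affects virus entry, was at 16.5 to 21.8 CPM in HCmel12 and at most 0.158 CPM in RET. Ifitm3, which blocks fusion of viruses with endosomes, was at 17.1 to 40.5 against 72.8 to 128 CPM (log2 fold change -1.79, SE 0.19, 20.5% of its sequence shared), and Stat2, a transducer of type I interferon, was at 6.51 ± 0.755 against 17.7 ± 3.52 CPM (log2 fold change -1.43, SE 0.17). Irf7, a regulator of the response (0.869 ± 0.146 and 1.81 ± 2.31 CPM, adjusted p = 0.51), did not pass the test, and HCmel12 replicate 4 was its highest library. The list therefore did not separate the lines in 1 direction.

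Of 37 tested chemokines and immune ligands, 12 were higher and 13 were lower in RET (10 and 9 at 2-fold or more, median log2 fold change -0.05). Cxcl11 and Cxcl10, named for chemokines that bind Cxcr3, a chemokine receptor of T cells, were not alike in the test. Cxcl11, which the annotation lists as a polymorphic pseudogene, was at 17.8 to 22.5 CPM in HCmel12 and at most 0.199 CPM in RET (log2 fold change -7.47, SE 0.39), whereas Cxcl10 did not pass the test (43.7 ± 6.22 and 42 ± 11.1 CPM, adjusted p = 0.63). Ccl5, which attracts T cells and monocytes, was at 4.17 to 7.31 against 0.162 to 0.767 CPM (log2 fold change 4.03, SE 0.40). The galectins, which bind sugars on cell surfaces, diverged, with Lgals9 at 61.6 to 74.7 against 5.19 to 8.88 CPM and Lgals3 at 0.08 to 0.277 against 59.9 to 151 CPM. Of 38 tested NF-kB and TNF response genes, 9 were higher and 17 were lower (2 and 8 at 2-fold or more, median -0.29).

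Cholesterol and fatty acid genes were mostly lower in RET. Of 49 tested, 6 were higher and 40 were lower in RET (1 and 23 at 2-fold or more), with a median log2 fold change of -0.92, and of -0.84 without HCmel12 replicate 4. Idi1, the isomerase of isopentenyl diphosphate, was at 53.2, 58.6, 60, 68 and 67.6 CPM in RET and at 224, 259, 208, 205 and 254 CPM in HCmel12 (log2 fold change -1.90, SE 0.10, adjusted p = 9.4e-15). It was lower in every RET library than in any HCmel12 library.

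The factor that drives sterol genes, Srebf2, was at 192 to 222 against 290 to 325 CPM (log2 fold change -0.64, SE 0.06), while Srebf1, which drives fatty acid genes, did not pass the test (154.9 ± 19.6 and 145.3 ± 12.7 CPM, adjusted p = 0.33). Scd1, the desaturase that makes oleate, was at 152 to 190 against 514 to 898 CPM (log2 fold change -1.88, SE 0.13). Lpl, the lipase of circulating triglycerides, was 154-fold lower in RET. Fabp7, a fatty acid binding protein of the neural crest, was the only member higher by 2-fold or more, at 8.84 to 10.5 against 2.44 to 4.29 CPM (log2 fold change 1.50, SE 0.22).

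Of 81 tested nuclear oxidative phosphorylation genes, 35 were higher and 27 were lower in RET, but only 4 and 1 at 2-fold or more, with a median log2 fold change of 0.03, and of 0.07 without HCmel12 replicate 4. Sdhb, a subunit of succinate dehydrogenase, was at 371 to 416 against 138 to 157 CPM (log2 fold change 1.43, SE 0.05), and Ndufa9, a subunit of complex I, was at 218 to 230 against 94.9 to 103 CPM (log2 fold change 1.19, SE 0.04). Of 13 mitochondrially encoded genes, none was called higher and 6 were lower (1 at 2-fold or more, median -0.35), and without HCmel12 replicate 4 none passed 2-fold and the median was -0.22. At a 2-fold limit the respiratory genes were thus below the background shares.

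Of 46 tested glycolysis and hypoxia genes, 20 were higher and 13 were lower (7 and 5 at 2-fold or more, median log2 fold change 0.09), and 8 members were raised in HCmel12 replicate 4. On chromosome 6 lie 8 of the members, and without them the median was 0.02. Gapdh, glyceraldehyde-3-phosphate dehydrogenase, was at 8030 to 9220 CPM in RET and 3360 to 3540 CPM in HCmel12 (log2 fold change 1.32, SE 0.07, 27.2% of its sequence shared), Tpi1, the triosephosphate isomerase, was 2.31-fold higher, and Slc2a3, the glucose transporter GLUT3, was at 53.2 to 68.9 against 7.26 to 23.7 CPM (log2 fold change 2.50, SE 0.19). These 3 genes are on chromosome 6. Eno2, also on chromosome 6, had the opposite sign (log2 fold change -2.63, SE 0.21), while Eno1, an enolase on chromosome 4 with 28.5% of its sequence shared, was 1.98-fold higher.

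ATF4 is the transcription factor of the amino acid and unfolded protein stress response, and its targets were sensitive to 1 library. Of 48 tested, 32 were higher and 9 were lower in RET (12 and 5 at 2-fold or more), with a median log2 fold change of 0.40, and of 0.64 without HCmel12 replicate 4. The ATF4 element TGATGCAA, searched on both strands, was present in 13 of 41 members with a promoter entry (31.7%) and in 294 of all 32851 promoters (0.895%). Windows are given for Chac1 and Nupr1, whose levels show the library effect, with the reverse complement TTGCATCA in capitals.
Chac1 (chr2:119351024-119351081, plus strand): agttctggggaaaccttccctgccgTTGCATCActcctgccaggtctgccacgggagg
Nupr1 (chr7:126625548-126625605, minus strand): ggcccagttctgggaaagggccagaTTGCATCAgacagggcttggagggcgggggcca

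Chac1, which degrades glutathione, was at 26, 24.3, 23.4, 14.1 and 29.5 CPM in RET and at 1.84, 1.75, 1.46, 14.8 and 1.67 CPM in HCmel12 (log2 fold change 3.13, SE 0.43, adjusted p = 4.6e-07). Only replicate 4 reached the range of RET, and the HCmel12 mean fell from 4.31 to 1.68 CPM without it. Nupr1, a stress-induced chromatin protein, was at 2.44 to 5.21 CPM in RET and at 0.319 to 0.732 CPM in 4 HCmel12 libraries with 20.5 CPM in replicate 4. The test of Nupr1 depended on the method and the model. The log2 fold change was 1.97 (SE 0.60, adjusted p = 0.0054) by voom and -0.09 by edgeR's quasi-likelihood test. With a replicate block it was 1.27 and did not pass the test (adjusted p = 0.071). By voom without a block it was 3.03 without HCmel12 replicate 4 and between 1.55 and 2.15 with any other library left out. The HCmel12 mean of Nupr1 was 4.52 CPM, above the RET mean of 4.24 CPM, and 0.525 CPM without replicate 4. Trib3, a pseudokinase that dampens the response, was at 13.2 to 37.8 CPM in RET and 2.03 to 6.59 CPM in 4 HCmel12 libraries with 65.4 CPM in replicate 4. Its call also depended on the method, with a log2 fold change of 1.82 (SE 0.48, adjusted p = 0.0018) by voom and of 0.48 by the quasi-likelihood test, where it did not pass, and the HCmel12 mean of 16 CPM became 3.6 CPM without replicate 4.

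Among members of amino acid and folate metabolism the signs differed, as Asns and Mthfd2 were higher in RET while Cbs, an enzyme of cysteine synthesis (log2 fold change -2.34, SE 0.21), and Slc7a1, a transporter of cationic amino acids (-1.18, SE 0.10), were lower. Asns, asparagine synthetase, was at 254 to 349 CPM in RET and 150 to 159 CPM in HCmel12, with 349 CPM in replicate 4 (log2 fold change 0.79, SE 0.18). Mthfd2, the mitochondrial folate enzyme, was at 208 to 308 against 77.6 to 159 CPM (log2 fold change 1.43, SE 0.15), and Atf4 itself was at 312.5 ± 33.9 against 195.5 ± 43 CPM (log2 fold change 0.70, SE 0.12). Ddit4, an inhibitor of mTORC1, was at 11.4 to 20.7 against 1.7 to 8.8 CPM (log2 fold change 2.44, SE 0.29), and the HCmel12 mean fell from 3.49 to 2.17 CPM without replicate 4. Stc2, a secreted glycoprotein of the same response, had no count in RET and 3.86 to 13.6 CPM in HCmel12, at least 58.3-fold lower in RET. The HCmel12 medium held additional non-essential amino acids, and line and medium cannot be told apart here either.

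**Figure D4:**
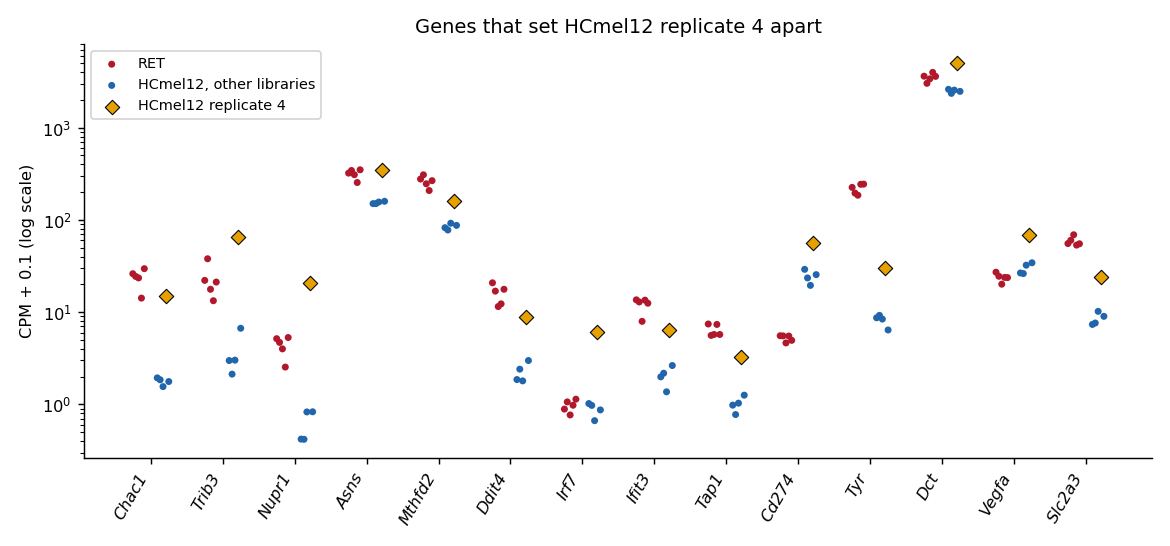
Level of 14 genes in each library as CPM plus 0.1 on a log axis (red, RET; blue, HCmel12 replicates 1, 2, 3 and 5; orange diamonds, HCmel12 replicate 4). Replicate 4 lies above the other HCmel12 libraries in all 14, within the RET range for Chac1 and above every RET library for Trib3 and Nupr1.

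Among 46 tested ferroptosis and oxidative stress genes, 14 were higher and 16 were lower in RET (4 and 9 at 2-fold or more, median log2 fold change -0.18). Gpx1, the main glutathione peroxidase of the cytosol, was at 93.9 to 111 against 287 to 370 CPM (log2 fold change -1.73, SE 0.09). Sod3, the extracellular superoxide dismutase, was 9.05-fold lower, and Cbr1, a carbonyl reductase, was at 14.3 to 17.8 against 0.159 to 0.525 CPM (log2 fold change 5.97, SE 0.25).

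Proliferation genes were close between the lines. Of 60 tested S phase and mitosis genes, 20 were higher and 7 were lower in RET (2 and 1 at 2-fold or more), with a median log2 fold change of 0.16, and of 0.07 without HCmel12 replicate 4. Mki67, the proliferation marker, was at 377.8 ± 26.5 and 310.8 ± 47.8 CPM (log2 fold change 0.29, SE 0.17, adjusted p = 0.13), and Top2a, the topoisomerase of mitosis, was at 456.8 ± 28.5 and 508 ± 103 CPM (log2 fold change -0.14, SE 0.15, adjusted p = 0.42). The members past 2-fold were Tyms, thymidylate synthase, and the helicase subunits Mcm2 and Mcm7. Tyms was at 198.8 ± 11.6 against 78.9 ± 10.6 CPM and Mcm2, on chromosome 6, at 583.4 ± 21.2 against 263.1 ± 39.9 CPM, whereas Mcm7 was at 234.9 ± 7.71 against 774.5 ± 96.9 CPM, with 26.8% of its sequence shared. Subunits of the same helicase thus had opposite signs.

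Chromosome 6 had the highest median of all chromosomes. Its 776 tested genes had a median log2 fold change of 0.81, with 315 (40.6%) higher by 2-fold or more and 76 (9.8%) lower, against 12.4% and 14.2% of all genes. Without the filter on low counts, which adds genes with few counts, the median of the chromosome was 0.23. The medians of the other autosomes ran from -0.28 (chromosome 1) to 0.22 (chromosome 12), and that of the X chromosome was -0.18. The Y chromosome, with 10 tested genes, had a median of -0.69, and the mitochondrial genome, with 21, had one of -0.65. The Y value rests in part on genes nearly without counts. Ddx3y had 0 counts in RET and at most 2 in HCmel12. Eif2s3y, with 0 and at most 1, still had a log2 fold change of -0.68. The difference was not uniform along the chromosome. With the genes in order in 20 bins, bin 1 (39 genes, from 3190691 to 12081205) had a median of 0.42, with 22 genes called higher (56.4%) and 14 lower (35.9%). Bins 2 to 4 (117 genes, from 12311610 to 39421294) had a median of -0.43, with 16 higher (13.7%) and 68 lower (58.1%), and the last 16 bins (620 genes, from 39462378 to 149563329) had a median of 0.97, with 473 higher (76.3%) and 55 lower (8.9%). Neighbouring genes are not independent, the bins were drawn after the chromosome median was seen, and they were pooled into these stretches after the bin medians were seen.

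Ccnd2, Suclg2, Ephb6, Plxnd1, Lrp6, Gapdh, Tpi1, Slc2a3 and Mthfd2 lie in the last stretch, as does Mitf, which was lower in RET. Met, Cav1 and Cav2 lie in bins 2 to 4 and Asns in bin 1. Besides the lists for which it is given elsewhere, leaving out the members on chromosome 6 moved the median log2 fold change by more than 1.5-fold for transgene and driver pathway genes (-0.27), receptor tyrosine kinases (-0.20), mesenchymal and EMT genes (-0.14), collagens and laminins (-0.011), junction genes (-0.05), nuclear oxidative phosphorylation genes (0.017), imprinted genes (-0.30) and neurotransmitter receptors (-0.12). For pairs of lines, differences of log2 CPM with a pseudocount were taken, and their median over all tested genes was subtracted. This scale differs from that of the fitted value of 0.81 for chromosome 6. On it the chromosome 6 median was 0.71 for RET minus HCmel12 and 0.75 for RET minus WT31. It was 0.87 for RET minus D4M and 0.13 for RET minus B16F10 luc2. These comparisons share the RET libraries. For HCmel12 it was 0.00 against WT31, 0.15 against D4M and -0.49 against B16F10 luc2. The number of copies of chromosome 6 was not measured, and its part in these values was not tested.

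**Figure D5:**
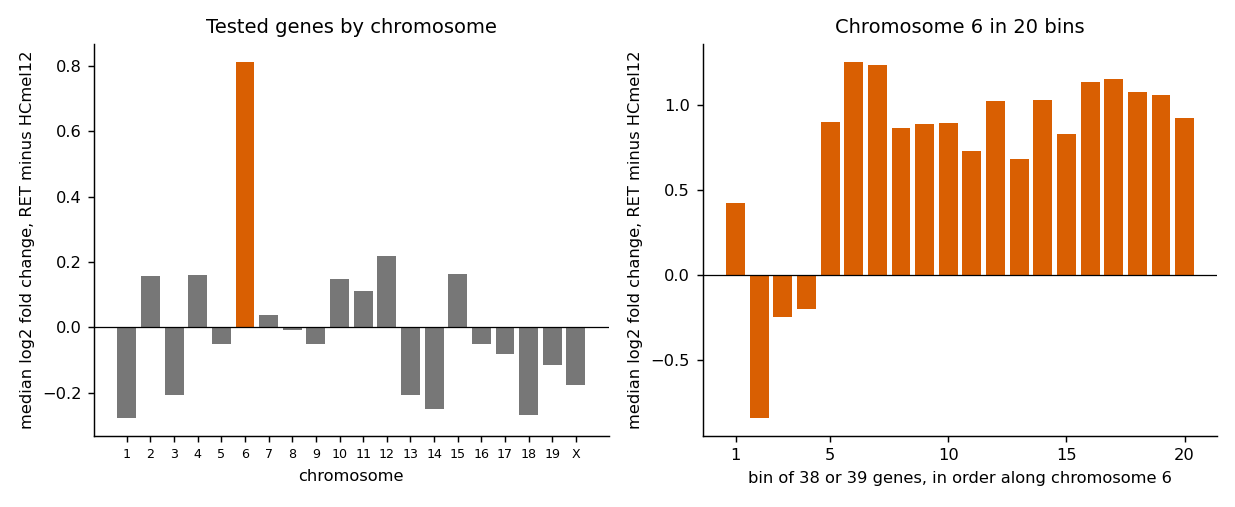
Median log2 fold change of RET relative to HCmel12 over the tested genes of each chromosome (left) and of 20 successive groups of 38 or 39 genes along chromosome 6 (right). The Y chromosome and the mitochondrial genome are not drawn. Chromosome 6 (0.81) is above all others drawn, and its bins 1 and 5 to 20 are above 0 while bins 2 to 4 are below.

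Hox genes, which record position along the body axis, lie partly in the last stretch of chromosome 6. Of 25 tested, 14 were higher and 5 were lower in RET (13 and 5 at 2-fold or more), with a median log2 fold change of 1.07 that became -0.05 without the 10 Hoxa members on chromosome 6. Hoxa10 was at 31.4 to 35.7 CPM in RET and at most 0.0813 CPM in HCmel12, at least 275-fold higher, and Hoxa11 was at least 85.8-fold and Hoxa9 at least 29.1-fold higher. Hoxd13, of the most posterior group and on chromosome 2, was at 9.58 to 10.4 against 36.7 to 45.4 CPM (3.99-fold lower, adjusted p = 8.2e-17).

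Xist, the RNA that silences an X chromosome in female cells, was at 236, 174, 174, 252 and 205 CPM in HCmel12 and at most 0.08 CPM in RET, at least 1780-fold lower. Of the Y-linked genes, Ddx3y and Eif2s3y had at most 3 counts in every library of both lines. Kdm5c, an X-linked demethylase that escapes silencing, was at 59.8 to 70 against 181 to 201 CPM (log2 fold change -1.64, SE 0.06). Of 29 tested imprinted genes, 3 were higher and 13 were lower (3 and 6 at 2-fold or more, median log2 fold change -0.20).

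Of 46 listed neurotransmitter receptors, 25 were tested, of which 6 were higher and 9 were lower in RET (4 and 9 at 2-fold or more, median log2 fold change -0.39). Glrb, the β chain of glycine receptors, was at 168 to 191 CPM in RET and 0.0398 to 0.361 CPM in HCmel12, around the detection limit (log2 fold change 10.39, SE 0.38), while the AMPA receptor subunit Gria4 was at 16.9 to 18.8 against 72.9 to 88 CPM (log2 fold change -2.21, SE 0.15). Grin2c, an NMDA receptor subunit, was at least 77.9-fold lower in RET.

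Of 28 tested sialyltransferases and ganglioside enzymes, 7 were higher and 13 were lower (4 and 5 at 2-fold or more, median log2 fold change -0.10). Cmas, which activates sialic acid and lies on chromosome 6, was at 125 to 134 against 27 to 33.3 CPM (log2 fold change 2.02, SE 0.08). St6galnac3, an α2,6-sialyltransferase of glycolipids, was at 5.96 to 8.57 CPM in RET with no count in HCmel12, at least 63.5-fold higher. B4galnt1, the synthase of the gangliosides GM2 and GD2, was at 0.112 to 0.34 against 12.5 to 16 CPM (log2 fold change -5.79, SE 0.31). The AP-1 and Hippo genes, with 12 of 30 higher and 15 lower (6 and 7 at 2-fold or more, median -0.33), held differences in both directions. The reference genes Gak (log2 fold change -0.30, SE 0.04) and Srp72 (0.24, SE 0.06) passed the test with small differences.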

How the data were processed

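Reads of untreated cultures were trimmed by the authors (Trim Galore 0.6.4, per the submitters' processing notes), assigned to GRCm38.p6 from GENCODE with kallisto and deposited as unnormalized estimated counts per gene. TPM values, scaled by length to 1000000 per library, were deposited too, and those of D4M replicate 1 were left out here. The annotation release and the step to genes are not given in the sources used here. Kallisto divides ambiguous reads, so that 25.56% to 26.61% of all values in each of the 10 libraries, zeros included, were not whole. The share of 31-base sequences that a gene's transcripts have in common with other genes was counted to gauge this. Symbols and positions were from GENCODE M21 (55144 of 55385 genes).

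Genes were filtered with filterByExpr by line, which left 15247. Counts were scaled with TMM (edgeR 4.0.16) and fitted with voom and limma 3.58.1 (R 4.3.3) as 1 mean per line over all 25 libraries, and p-values were adjusted over all tested genes with the Benjamini-Hochberg method at 0.05. Floors of 3 counts cover counting error only, as PCR copies cannot be told from separate molecules. Promoters were from RefSeq (250 bases before to 50 after the start).

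The comparison, the gene lists and the genes named were chosen with earlier results of these data known, and the counts of lists are descriptions. Named were 22 genes of the study's design, markers and reference genes, the 10 highest and 10 lowest called genes with at least 10 CPM in the higher line and no overlap, the 4 highest and 4 lowest called members of each list with at least 1 CPM, of which some are given, and members that were not called. Chosen after their values were seen were Aen, Apln, Asns, Atf4, Axl, B2m, Bax, Cav2, Ccnd1, Cdh2, Dusp6, Eno1, Epha4, Erbb3, Etv4, Gapdh, H2-D1, H2-K1, Id1, Id3, Idi1, Ifit1, Ifit3, Itgb1, Mdm2, Mmp2, Mtap, Mthfd2, Mx1, Ngfr, Pdgfa, Plxnd1, Psmb8, Scd1, Slc24a5, Smad3, Srebf2, Tcf7, Tpi1, Trp53, Vegfb, Vegfc and Zmat3. Dmrta1 was given as a neighbour of Cdkn2a and Cdkn2b.

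As alternatives, library size only or DESeq2's size factors were used for scaling, edgeR's quasi-likelihood test or DESeq2 1.42.0 on rounded counts for testing, no filter or at least 10 counts, only the 10 libraries, a replicate block, log2 of TPM plus 1 or 0.1, an adjusted p under 0.01, and each of the 10 libraries left out. Leaving out chromosome 6 was added after seeing the data. On simulated data with 200 genes changed 4-fold among 14705, voom recovered 199 with 5 false calls. Some genes are not reported here.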

Additional observations from a re-analysis of the deposited data

Results flagged for a closer look

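Single libraries far from the other 4 of their line were searched for among the named genes with a mean of at least 1 CPM. Of 316 groups of 5 libraries, 42 held such a library, where chance flags about 1 in 20 groups. Some named genes were chosen after their values were seen, and genes of the same library are not independent. The 2 rates can therefore not be set against each other as a test. HCmel12 replicate 4 accounted for 23 of them, RET replicate 3 for 13, HCmel12 replicate 3 for 3, RET replicate 2 for 2 and RET replicate 4 for 1.

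In HCmel12 replicate 4 the stress genes Chac1 (14.8 CPM), Trib3 (65.4), Nupr1 (20.5), Ddit4 (8.8), Stc2 (13.6), Asns (349) and Mthfd2 (159) were the highest of the line. The same held for the immune genes Tap1 (3.15 CPM), Psmb8 (2.06), Cd274 (55.4), Irf7 (5.93) and Ifit3 (6.24), while the chemokine gene Cxcl10 was the lowest (22.5 CPM). Among melanocyte genes, Tyr (30.0 CPM) and Dct (5040 CPM) were the highest of the line. Vegfa (68.8 CPM), Slc2a3 (23.7), Cav1 (479) and Cdh1 (15.2) were also high. Mtap (178 CPM), Trp53 (184), Kdm5c (181) and Cmas (27.0) were the lowest of the line in this library.

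In RET replicate 3 the metallothionein genes Mt1 (472 CPM) and Mt2 (283) were the lowest of the line, as were the antiviral gene Ifit3 (7.85), the desaturase Scd1 (152) and the helicase subunit Mcm2 (547). Plk2 (17.4 CPM), Fos (3.7), Erbb3 (112), Serpine2 (5.09), Ccn4 (24.9), Gja1 (36.7), Plxnd1 (1310) and Kdm5c (70) were the highest. In HCmel12 replicate 3 the proliferation genes Mki67 (396 CPM) and Top2a (691) and the receptor Plxnd1 (238) were the highest of the line. In RET replicate 2 Robo1 (58.4 CPM) and Srebf2 (222) were the highest, and in RET replicate 4 Fstl3 (14.7 CPM). What set these libraries apart was not tested.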

How the results depend on the processing

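Of 4108 pairs of a named gene and an alternative, 4069 kept their direction and their side of the threshold. Genes called higher and lower in RET numbered 5177 and 5076, between 5069 and 5246 and between 4926 and 5110 with 1 of the 10 libraries left out, 5406 and 4853 with library size only, 4996 and 5286 with DESeq2 size factors, 5116 and 5145 with the quasi-likelihood test, 4941 and 5356 with DESeq2, and 4666 and 4939 outside chromosome 6. Counts at 2-fold or more lay between 1887 and 2003 higher and between 2122 and 2215 lower with 1 library left out, and fell to 1113 and 1232 on log2(TPM + 1), whose pseudocount compresses low genes. The chromosome 6 median of 0.81 lay between 0.80 and 0.83 with 1 library left out and became 0.23 without a filter, 0.87 with at least 10 counts, 0.84 with only the 10 libraries and 0.65 on log2(TPM + 1). The replicate numbers did not pair the samples: same-numbered libraries had correlations of deviations between -0.0257 and 0.1042, and only 2 of 5 correlated best with their own number. With the replicate block 5169 genes were higher and 5116 lower, and with only the 10 libraries 4758 were higher and 4753 lower. Nupr1, called higher in the report (1.97), was not called with the block (1.27) and turned to -0.09 with the quasi-likelihood test and -0.12 with DESeq2. Genes that were not called and changed sign were Mt2 (0.01, then -0.014 with DESeq2 size factors, -0.006 with the quasi-likelihood test, -0.033 with DESeq2, and -0.066 to 0.113 with 1 library left out), Tyrp1 (-0.006 with DESeq2 size factors, -0.032 to 0.075 with 1 library left out), Itga4 (-0.048 to 0.161 with 1 library left out), Cavin1 (0.002 on both TPM scales), and, without HCmel12 replicate 4, Cxcl10 (-0.111, up to 0.182 with others left out) and Irf7 (0.15, down to -0.683 with others left out). Calls were lost for Trpm1, Sox10, Trib3 and Ddx3y and gained for Cdk4, Axin2, Mki67, Dusp4 (-0.275 without RET replicate 3) and Dct (0.489 without HCmel12 replicate 4) under at least 1 alternative. Over 756 list medians, 9 changed sign, in the collagen, Eph, chemokine, nuclear oxidative phosphorylation and Hox lists. Causes were not tested. The depth limits statements on genes near 3 counts, 0.1114 to 0.122 CPM.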

Other observations

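RET was closer to B16F10 luc2 than to HCmel12. Between RET and B16F10 luc2, 7845 of 15247 genes were called and 2175 differed by 2-fold or more, against 10253 and 4049 between RET and HCmel12. The correlation of mean log2 CPM across genes was 0.9552 for the former pair and 0.8796 for the latter, and genes are not independent replicates. Both comparisons share the RET libraries. RET and HCmel12 were chosen as the closest pair of a line of HIM-melanoma with a line of LM-melanoma, so that their place among such pairs is no result. Within the lines, libraries correlated at 0.9862 or more in RET and at 0.9785 or more in HCmel12, and between the lines at 0.8642 to 0.8721.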
